A study of Mus musculus with 6 samples.

Results

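The beta-defensin and WFDC genes of the mouse testis were described here in RNA sequencing of whole testes from C57BL/6 mice, a standard inbred strain. Members were all genes whose symbol begins with Defb or Wfdc followed by a digit, which gave 61 of the 24411 genes in the files, 43 beta-defensin genes and 18 WFDC genes. The study asked how male reproduction and mitochondria fare without the transporters MRP5 and MRP9, encoded by Abcc5 and Abcc12. The libraries fell into 3 labelled DKO, from animals with the genotype MRP5-/- and MRP9-/-, and 3 labelled WT, from age-matched animals with the genotype Wildtype. The labels give no age in weeks, no treatment and no description of the alleles, and nothing beyond separate animal numbers says how the animals were bred. Members were chosen by symbol and the expressed ones were selected on their mean TPM in the libraries labelled WT. The family was picked with a lower level of Defb19 in libraries labelled DKO already known. Defb19 and Wfdc10 were named in advance as its markers. Wildtype levels are therefore given as a description, and the fold changes below are not independent evidence that the family responds.

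Beta-defensins are small secreted cationic peptides folded around conserved cysteine pairs. They can disrupt microbial membranes, and several coat sperm in the male tract, where the epididymis makes most of them. WFDC proteins carry the whey acidic protein domain, another compact cysteine-rich fold, and many of them inhibit serine proteases. In the testis Defb19, also called testis defensin-like, is known as a product of Sertoli cells, the somatic cells that nurse germ cells inside the tubules.

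Depth and fragment length differed between the groups and bear directly on transcripts as short as these. Libraries labelled WT held 26753721 to 31745969 expected counts (the fragments that RSEM assigns to genes) and those labelled DKO 42673615 to 67131103. The mean fragment length was 230 to 258 bases in libraries labelled WT and 275 to 317 bases in those labelled DKO, with no overlap. A fragment longer than the transcript cannot come from it, so the effective length, which is the part of a transcript where a fragment can start, was shorter in libraries labelled DKO: for Defb19 the mean was 122 bases against 162 bases. TPM, a level relative to all transcripts of the library, divides by that length, and CPM, the count relative to the library total scaled by TMM, does not, so both scales are given. Of the targeted genes, Abcc12 was lower in libraries labelled DKO (log2 fold change -1.02, SE 0.0739, edgeR adjusted p = 3.07e-04), while Abcc5 was higher (0.56, SE 0.0896, edgeR adjusted p = 0.0225). Its mean effective length was 4700 bases in libraries labelled WT and 5192 bases in those labelled DKO. With an offset from each library's effective lengths, described below, Abcc5 was at 0.38 (SE 0.0853, edgeR adjusted p = 0.0333). The transcript level of Abcc5 was thus not lower under the label MRP5-/-. Without a description of the alleles, the RNA level neither bears out nor contradicts that label. Groups are named by their labels throughout. WT replicate 2 had the highest summed level of Leydig cell markers (3302 TPM against 1641 and 2110 in the other libraries labelled WT) and of macrophage markers (34.0 TPM against 16.4 and 23.9).

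Most of the family had few or no fragments. No fragment was counted in any library for 22 of the 61 members, 20 of them beta-defensins. A count of 0 in the smallest library allows up to 0.112 CPM (3 counts), for counting error only. That bound is not per length. Among these 22 members the mean effective length in libraries labelled WT ran from 3.56 bases (Defb46) to 753 bases (Defb12). For the shortest of them, such as Defb46, Defb38 (9.92 bases) and Defb5 (11.2 bases), a count of 0 does not show that the gene is silent. Another 19 members had from 1 to 50 fragments over all 6 libraries and stayed below a wildtype mean of 0.5 TPM, the line used here for a gene that is expressed. The remaining 20 members reached it, 10 of 43 beta-defensins (23.3%) and 10 of 18 WFDC genes (55.6%). Over all genes in the files the share at or above the same line was 64.7%.

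The line of 0.5 TPM is a weak one for the shortest transcripts. Just inside it lay Defb8 (0.510 TPM), Wfdc18 (0.550 TPM) and Wfdc9 (0.647 TPM), and just outside it Defb37 (0.417 TPM), Defb23 (0.357 TPM) and Defb41 (0.350 TPM). Defb8 passed on 1 fragment in each of WT replicates 1 and 3, because its effective length of 70.3 bases made each fragment worth 0.765 TPM. Wfdc18 passed on 11 fragments in WT replicate 2, with 0 in both other libraries labelled WT. Of the 20 members, 3 had at most 10 fragments over the libraries labelled WT together, all of them beta-defensins. A stricter reading is given by the 9 members with a wildtype mean of at least 10 TPM, namely Defb19, Wfdc15a, Defb36, Wfdc10, Defb33, Wfdc6a, Wfdc3, Defb45 and Wfdc1.

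**Figure D1:**
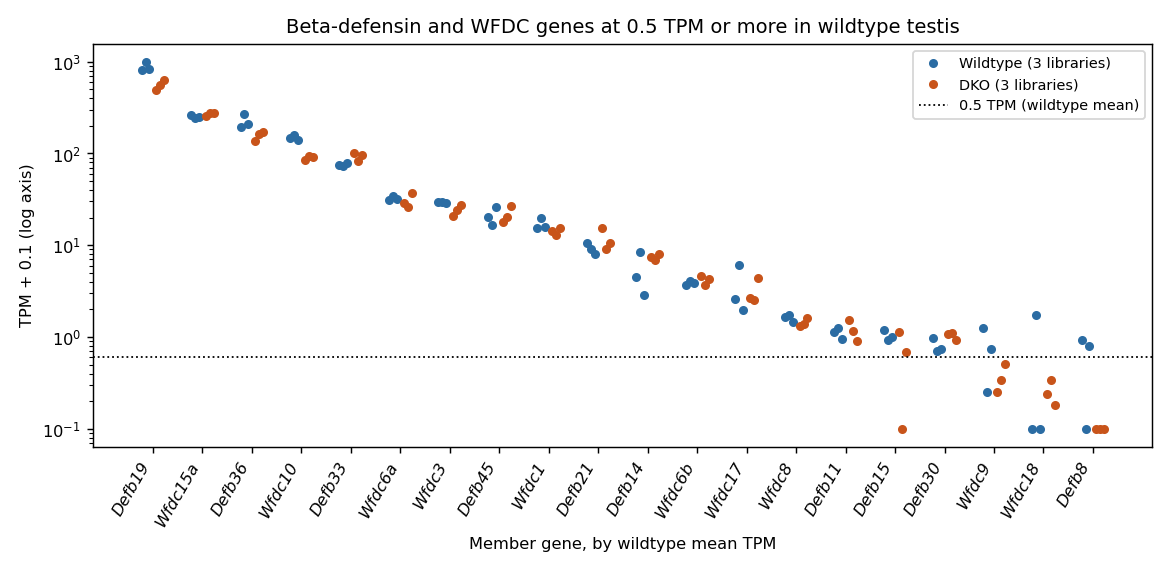
TPM plus 0.1 on a log axis (y) for the 20 members at or above a wildtype mean of 0.5 TPM (x, in order of that mean), with 1 point per library and the line at 0.5 TPM dotted. Defb19 lies above every other member in all 6 libraries, and Defb8 sits at 0 in the 3 libraries labelled DKO.

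A single gene dominated. Defb19 had 877 ± 92.4 TPM (SD, n = 3) in libraries labelled WT, which ranked it 146 among the 24411 genes and made up 51.4% of the summed TPM of the 20 members. It was followed by Wfdc15a at 254 ± 10.3 TPM and Defb36 at 224 ± 39.1 TPM, a neighbouring pair that did not differ beyond the sum of their SDs. Wfdc10 came next at 148 ± 10.9 TPM and Defb33 at 75.7 ± 3.55 TPM (SD, n = 3 each). The top 4 members together held 88.1% of the summed level. Below them, each gap down to Defb45 exceeded the sum of the neighbours' SDs: Wfdc6a had 32.4 ± 1.90 TPM, Wfdc3 29.3 ± 0.447 TPM and Defb45 20.8 ± 4.65 TPM (SD, n = 3 each). Wfdc1, which encodes the secreted growth inhibitor ps20, had 16.9 ± 2.45 TPM (SD, n = 3) and was not separated from Defb45.

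Expression was concentrated in 2 gene clusters of chromosome 2. Positions are from RefSeq on GRCm38.p6, the assembly that mm10 in the submitters' processing notes refers to, and all 61 symbols matched. The first cluster spans 164 kb (chr2:152459055-152623053) with 11 beta-defensin genes, of which 4 were expressed: Defb21, Defb19, Defb45 and Defb36, which stand next to each other. The second spans 570 kb (chr2:164176325-164745994) with 14 WFDC genes, of which 7 were expressed. Summed over their members, these clusters held 1132 and 471 TPM in libraries labelled WT and 749 and 421 TPM in those labelled DKO. The large beta-defensin region of chromosome 8 (chr8:18974914-21948622) had 24 members, of which 15 had no fragment in any library, 5 were expressed and only Defb33 exceeded 10 TPM. On chromosome 14 only Defb30 of 5 members was expressed, on chromosome 11 Wfdc17 and Wfdc18 of 3, and on chromosome 1 none of 3. Wfdc1 lies alone on chromosome 8.

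**Figure D2:**
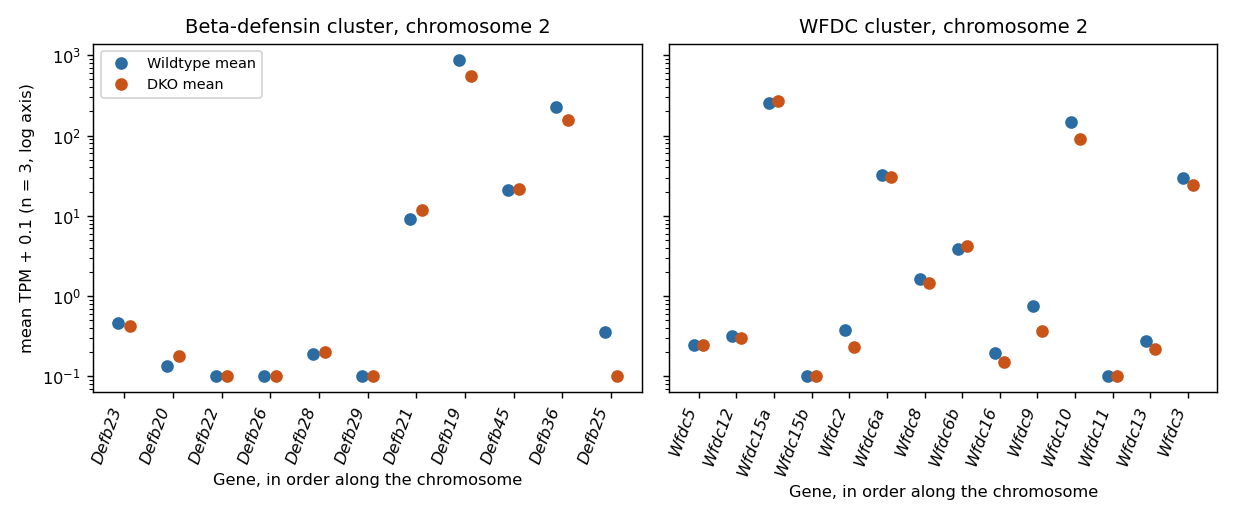
Mean TPM plus 0.1 on a log axis (y, n = 3 libraries per group) for the 11 beta-defensin and 14 WFDC genes of the chromosome 2 clusters, in order along the chromosome (x). The 4 expressed beta-defensins are consecutive, whereas the 7 expressed WFDC genes lie at several places of their cluster, with Wfdc6a, Wfdc8 and Wfdc6b next to each other, and Wfdc9 next to Wfdc10.

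Of the 61 members, 15 passed the filter on low counts (filterByExpr) and were tested, 7 beta-defensins and 8 WFDC genes. Counts were compared with the edgeR quasi-likelihood test over all 17110 genes that passed, and an adjusted p under 0.05 counted as a call. Defb19, Defb36 and Wfdc10 were called lower in libraries labelled DKO, at 51.0%, 60.2% and 51.5% of the wildtype CPM, and no member was called higher by edgeR in this fit, where 0 members had an unadjusted p under 0.05 with a higher level, nor under any alternative run, DESeq2 and limma included. Among all tested genes 10.8% were called, 5.10% lower and 5.75% higher. The 3 called members all have transcripts under 500 bases, as do 9 of the 15 tested members. Of the 211 tested genes under 500 bases, 31.3% were called lower in the same fit, so 3 of 9 is near that share. Of the 15 tested members 5 had an unadjusted p under 0.05, against 31.7% of all tested genes. In 5 of the 15 the groups did not overlap in CPM, against 35.9% of all tested genes, and in 5 they did not overlap in TPM, against 33.2%, shares near the background.

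Defb19 had 86.7, 107 and 89.8 CPM in libraries labelled WT and 38.1, 52.8 and 53.5 CPM in those labelled DKO (replicates 1, 2 and 3). Every library labelled DKO was below every library labelled WT. The means were 94.4 ± 10.8 and 48.1 ± 8.68 CPM (SD, n = 3 each), with a log2 fold change of -0.97 (SE 0.126; edgeR quasi-likelihood test, adjusted p = 0.0121). Per length, Defb19 had 815.25, 983.56 and 833.24 TPM in libraries labelled WT and 492.10, 555.41 and 626.65 TPM in those labelled DKO, 63.6% of the wildtype mean and again without overlap. The call was lost without WT replicate 3, in a fit that called 7 genes of all, where the log2 fold change was -1.01 (edgeR adjusted p = 0.0798, range over the fits that left out a library 0.00536 to 0.0798).

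Defb36, the beta-defensin gene that starts 24.0 kb beyond the end of Defb19, had 29.8, 41.1 and 32.0 CPM in libraries labelled WT and 16.4, 22.9 and 22.7 CPM in those labelled DKO. The groups did not overlap, and WT replicate 2 was highest, as for Defb19. Its means were 34.3 ± 5.97 and 20.6 ± 3.70 CPM (SD, n = 3 each), with a log2 fold change of -0.73 (SE 0.143; edgeR quasi-likelihood test, adjusted p = 0.0253). In TPM it was 195.27, 268.67 and 208.77 against 136.51, 162.61 and 172.41, or 70.1% of the wildtype mean. The call was lost without WT replicate 2, WT replicate 3 or DKO replicate 1 (log2 fold changes -0.59, -0.78 and -0.61; edgeR adjusted p = 0.0779, 0.0993 and 0.1), in fits that called only 13, 7 and 11 genes of all, and with limma on log2(TPM + 1), at an adjusted p of 0.0529. The genes between and beside them in the cluster, Defb45 and Defb21, did not pass the test.

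Wfdc10 had 21.5, 23.6 and 20.5 CPM in libraries labelled WT and 9.61, 12.8 and 11.4 CPM in those labelled DKO. All 3 libraries labelled DKO were lower than all 3 labelled WT. The means were 21.9 ± 1.59 and 11.3 ± 1.59 CPM (SD, n = 3 each), with a log2 fold change of -0.96 (SE 0.111; edgeR quasi-likelihood test, adjusted p = 0.00624). In TPM it was 146.13, 160.17 and 138.80 against 83.99, 94.88 and 90.47, or 60.5% of the wildtype mean. Its call was kept whichever of the 6 libraries was removed (edgeR adjusted p from 0.00240 to 0.0369). Of the 1323 bases spanned by Wfdc10, 1298 lie within the span of Wfdc9 on the opposite strand in RefSeq, although exons of the 2 genes share no base in GENCODE M21. Strand handling is not given in the sources used here. Wfdc9 itself had 6, 1 and 4 fragments in libraries labelled WT and 1, 2 and 5 in those labelled DKO.

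**Figure D3:**
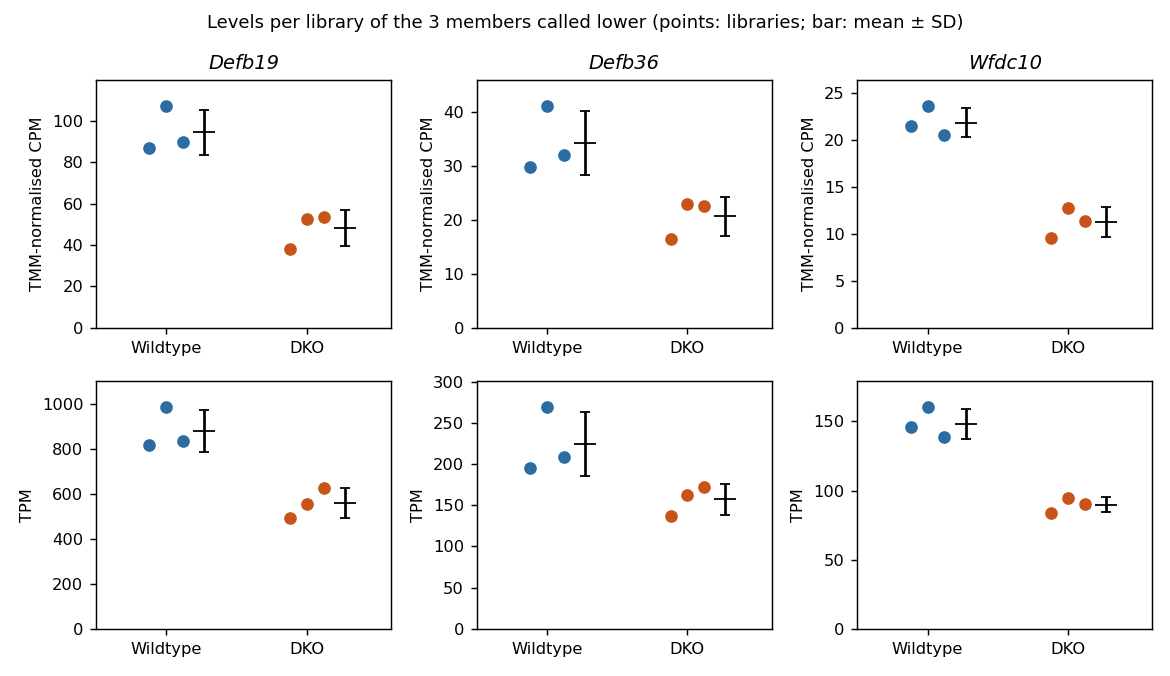
Levels of Defb19, Defb36 and Wfdc10 by group (x), as TMM-normalised CPM in the upper row and TPM in the lower row (y, from 0), with 1 point per library and the mean ± SD as a bar. On both scales the 3 libraries labelled DKO lie below the 3 labelled WT for each gene, and WT replicate 2 is the highest of all.

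In TPM, these 3 genes accounted for the fall in the summed level of the family. They are the members called lower, so a fall in their own sum follows from the choice. The 20 expressed members summed to 1706 ± 136 TPM in libraries labelled WT and 1290 ± 108 TPM in those labelled DKO (SD, n = 3 each), a difference in means of -417 TPM, and the 3 called genes alone differed by -445 TPM. The other 17 summed to 456 TPM in libraries labelled WT and 485 TPM in those labelled DKO. The 3 called genes made up 71.4% to 75.8% of the family's level in libraries labelled WT and at most 63.6% in those labelled DKO.

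Because short transcripts as a class were lower in libraries labelled DKO, the same test was run with an offset from each library's effective lengths. Without the offset, 31.3% of the 211 tested genes with transcripts under 500 bases were called lower and their median log2 fold change was -0.31. With it, 8.53% of them were called lower and the median was -0.01. Under the offset 9.71% of all tested genes were called and 4.12% were called lower. All 3 members were called lower with the offset too, with smaller differences. Defb19 was at -0.60 (SE 0.0882; edgeR quasi-likelihood test, adjusted p = 0.0228), Defb36 at -0.46 (SE 0.111; edgeR quasi-likelihood test, adjusted p = 0.0369) and Wfdc10 at -0.68 (SE 0.0914; edgeR quasi-likelihood test, adjusted p = 0.0141) on the log2 scale. The offset moved the value of Defb19 and Defb36 by more than 1.5 times. With the mean fragment length as a covariate, which does not overlap between the groups, no member was called. The 3 genes then had log2 fold changes of -0.39, -0.07 and -0.64 (edgeR adjusted p = 0.999 for each), 2 of the 15 tested members had an unadjusted p under 0.05, and 1 gene of all was called.

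**Figure D4:**
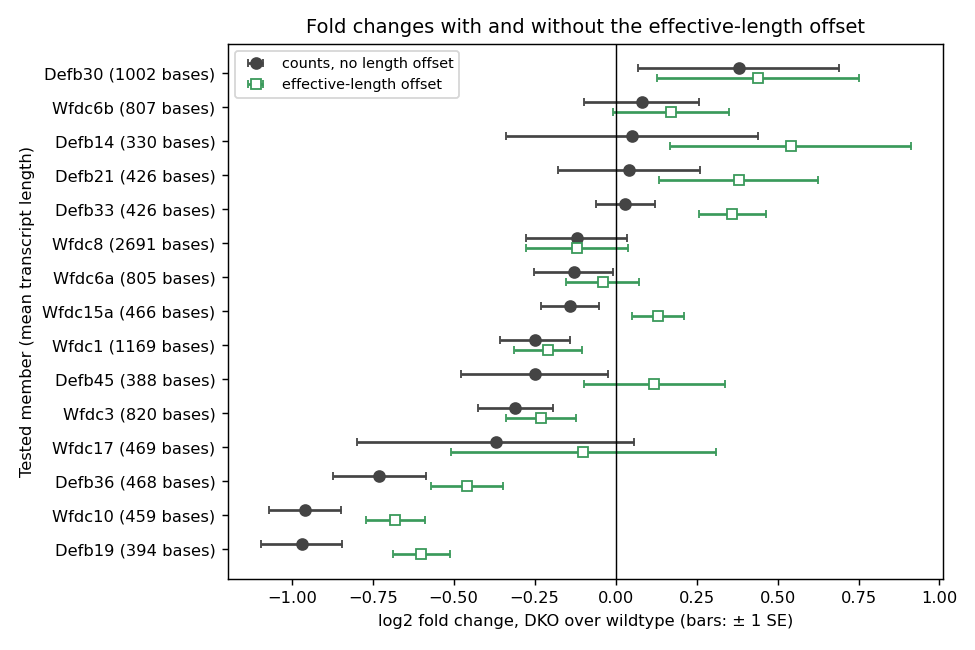
Log2 fold change of libraries labelled DKO over those labelled WT (x, ± 1 SE) for the 15 tested members (y, with the mean transcript length in bases), from counts without an offset (filled) and with the effective-length offset (open). The offset moved members under 500 bases to the right and moved the longer ones less, with Defb19, Wfdc10 and Defb36 the lowest in both.

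For each called gene, the count is also given as a ratio, within each library, to that of the uncalled member nearest in length with at least 10 TPM. The pairs were chosen after the values were seen, from a gene called lower and a gene not called, so the direction of each ratio follows from the choice and no test is given. Wfdc10 (459 bases) and Wfdc15a (466 bases) belong to the same cluster, and their effective lengths in libraries labelled DKO were 79.9% and 80.4% of those in libraries labelled WT. The count of Wfdc10 was 0.534, 0.634 and 0.538 times that of Wfdc15a in libraries labelled WT and 0.314, 0.336 and 0.314 times in those labelled DKO. The groups did not overlap, and the difference in the mean log2 ratio was -0.82. Defb36 (468 bases) had 0.742, 1.10 and 0.840 times the count of Wfdc15a in libraries labelled WT and 0.535, 0.600 and 0.627 times in those labelled DKO, a log2 difference of -0.59. Against Defb45 (388 bases), the count of Defb19 (394 bases) was 41.6, 61.7 and 33.5 times as high in libraries labelled WT and 28.9, 28.3 and 24.3 times as high in those labelled DKO, a log2 difference of -0.70. In these ratios no library labelled DKO reached the lowest library labelled WT. The part of fragment length in the lower level of the 3 genes cannot be told apart from the groups.

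The upstream sequences of Defb36, Wfdc10 and Wfdc15a are shown because the first pair was called lower while Wfdc15a, of like length, was not. Each run gives the 250 bases before the RefSeq transcription start on GRCm38.p6, on the strand of the gene, at chr2:152604077-152604326 (plus strand), chr2:164655796-164656045 (plus strand) and chr2:164200118-164200367 (minus strand). Capitals mark matches on either strand to any of 4 short motifs: TATAAA (the TATA box), AACAAT (bound by SOX factors), TGTTCT (a half-site of androgen and glucocorticoid receptors) and AGATAA (bound by GATA factors). The RefSeq promoter table held 43 of the 61 members and 17 of the 20 expressed ones; Defb19, Defb14 and Wfdc1 were not in it.
Defb36: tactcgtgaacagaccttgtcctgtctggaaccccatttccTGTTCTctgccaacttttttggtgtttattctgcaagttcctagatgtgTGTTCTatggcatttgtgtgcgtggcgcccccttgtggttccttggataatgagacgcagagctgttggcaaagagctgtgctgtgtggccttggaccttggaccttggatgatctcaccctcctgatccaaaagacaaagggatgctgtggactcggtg
Wfdc10: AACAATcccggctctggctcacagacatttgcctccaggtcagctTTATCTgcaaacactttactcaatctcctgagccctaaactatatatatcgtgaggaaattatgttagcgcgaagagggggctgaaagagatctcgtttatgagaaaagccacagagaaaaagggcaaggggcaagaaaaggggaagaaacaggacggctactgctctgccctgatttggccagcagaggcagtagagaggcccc
Wfdc15a: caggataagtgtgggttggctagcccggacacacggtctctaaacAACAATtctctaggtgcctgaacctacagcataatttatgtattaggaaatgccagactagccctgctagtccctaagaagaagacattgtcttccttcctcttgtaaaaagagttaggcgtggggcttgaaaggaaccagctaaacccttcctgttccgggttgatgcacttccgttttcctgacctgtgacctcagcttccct
The Defb36 window held TGTTCT at positions -209 and -160 from the start, a motif found in 16.1% of all 32851 promoter windows of this length. In the Wfdc10 window AACAAT stood at -250 and AGATAA, on the reverse strand, at -205, and these occur in 9.4% and 10% of all windows. The Wfdc15a window also held AACAAT, at -205. None of the 3 windows held TATAAA, which 12.4% of all windows do. No motif was common to both called genes, and these letter matches describe the windows only. None of the 5 matches overlapped another.

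Among the other expressed beta-defensins, none passed the test. Defb33 had 9.45, 9.25 and 10.1 CPM in libraries labelled WT and 9.71, 9.45 and 10.2 CPM in those labelled DKO (log2 fold change 0.03, SE 0.0921; edgeR quasi-likelihood test, adjusted p = 0.861). In TPM its groups did not overlap, at 74.91, 72.55 and 79.53 against 102.04, 82.77 and 97.18, and with the effective-length offset its log2 fold change was 0.36 (SE 0.104; edgeR quasi-likelihood test, adjusted p = 0.0522). The size of the difference for Defb33, but not its sign, changed with the treatment of length. Defb45 had 2.17 ± 0.481 against 1.80 ± 0.446 CPM and Defb21 1.15 ± 0.164 against 1.19 ± 0.221 CPM (labelled WT against labelled DKO, SD, n = 3 each), with overlapping libraries. Their log2 fold changes were -0.25 (SE 0.226) and 0.04 (SE 0.219).

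Defb14, the counterpart of human beta-defensin 103 and an antimicrobial and chemotactic peptide, had 8, 20 and 6 fragments in libraries labelled WT and 14, 18 and 27 in those labelled DKO. Its groups overlapped, WT replicate 2 was the highest in CPM, and its log2 fold change was 0.05 (SE 0.389; edgeR quasi-likelihood test, adjusted p = 0.948). Defb30 had 0.359 ± 0.0843 CPM in libraries labelled WT and 0.468 ± 0.0625 CPM in those labelled DKO (SD, n = 3 for each group; a log2 difference of 0.38, SE 0.310). The other 3 expressed beta-defensins were not tested because of low counts: Defb11 had 2 or 3 fragments in every library, Defb15 had 0 to 2, and Defb8 had at most 1. At this depth no difference in them was detectable.

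The WFDC genes other than Wfdc10 were also not called. Wfdc15a, the most abundant of them, had 40.2, 37.2 and 38.1 CPM in libraries labelled WT and 30.6, 38.1 and 36.2 CPM in those labelled DKO (log2 fold change -0.14, SE 0.0896; edgeR quasi-likelihood test, adjusted p = 0.314). With the effective-length offset its log2 fold change was 0.13 (SE 0.0804; edgeR quasi-likelihood test, adjusted p = 0.283), the other direction. Wfdc3 had 11.6, 10.9 and 11.1 CPM in libraries labelled WT and 7.5, 9.34 and 10.1 CPM in those labelled DKO. These groups did not overlap, but the difference of -0.31 on the log2 scale (SE 0.116) did not pass the threshold (edgeR adjusted p = 0.0940). It passed only without DKO replicate 3, where it was -0.41 (edgeR adjusted p = 0.0385). That fit called 3029 genes of all, against 1856 with all libraries. Wfdc1 had 10.3 ± 1.15 against 8.66 ± 0.563 CPM (labelled WT against labelled DKO, SD, n = 3 each), without overlap in CPM but with overlap in TPM (log2 fold change -0.25, SE 0.108; edgeR quasi-likelihood test, adjusted p = 0.133).

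Wfdc6a and Wfdc6b were the only members with fractional expected counts, which RSEM gives where fragments match more than 1 gene, so their split is uncertain. Wfdc6a took 86.3% to 89.8% of the fragments of the pair. Together they had 347, 468 and 410 fragments in libraries labelled WT and 481, 491 and 992 in those labelled DKO, with log2 fold changes of -0.13 (SE 0.121) for Wfdc6a and 0.08 (SE 0.177) for Wfdc6b. Wfdc8 had 2.46 ± 0.198 against 2.26 ± 0.204 CPM (labelled WT against labelled DKO, SD, n = 3 for each group; a log2 difference of -0.12, SE 0.156), and 105 exonic bases of it overlap Wfdc6b on the opposite strand. Neither gene passed the test.

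On chromosome 11, the expressed WFDC genes followed a single library. Wfdc17, also known as activated macrophage WAP, had 10, 31 and 9 fragments in libraries labelled WT and 13, 15 and 38 in those labelled DKO. Wfdc18 had 0, 11 and 0 fragments against 1, 2 and 1. In libraries labelled WT both were highest in replicate 2, the library with the highest summed macrophage markers. The part of those cells in these values was not tested. The log2 fold change of Wfdc17 was -0.37 (SE 0.428) with all libraries and 0.33 without WT replicate 2, and neither passed the test (edgeR adjusted p = 0.583 and 0.689).

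The median log2 fold change of the 15 tested members was -0.14, and -0.04 with the effective-length offset, while the median over all tested genes was at 0 to 2 decimals in both. The 9 tested members under 500 bases had a median of -0.25, and 0.12 with the offset. Without the offset 10 of the 15 were below 0, and with it 8 were. The values of Wfdc8 (-0.12 without and with the offset), Wfdc1 (-0.25 and -0.21) and Defb30 (0.38 and 0.44), all with transcripts over 1000 bases, moved little with it.

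**Figure D5:**
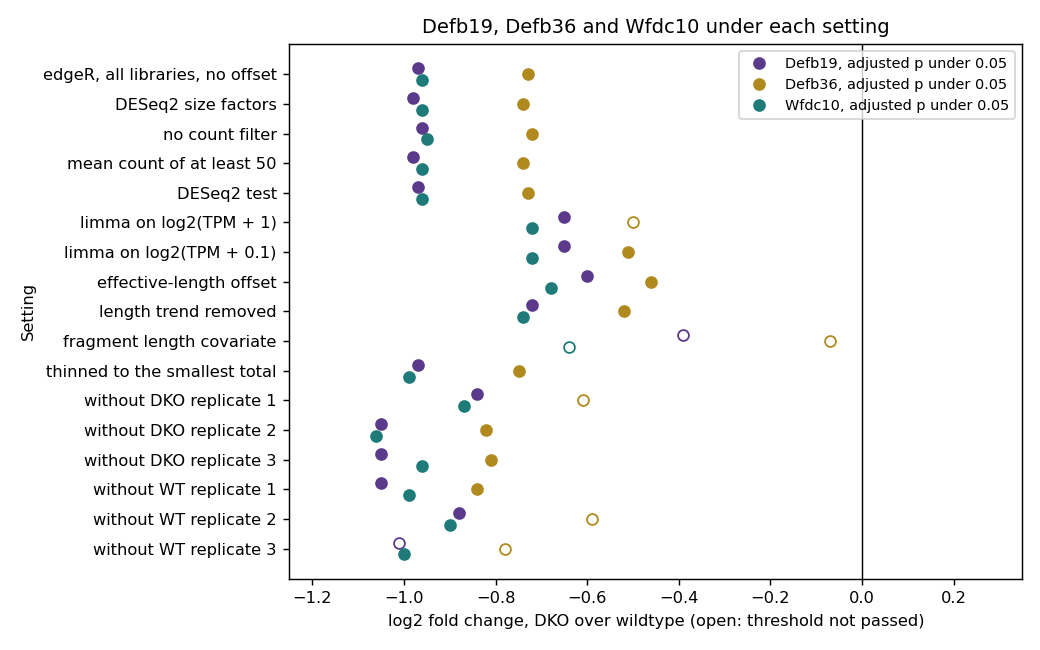
Log2 fold change of Defb19, Defb36 and Wfdc10 (x) under each setting (y), filled where the adjusted p was under 0.05 and open where it was not. All values are below 0, and no gene is filled with the fragment length as a covariate.

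Relatives of the family that the symbol rule does not match were read from a list of 12 genes, of which 6 were tested and 2 were called, both lower. Among all tested genes 5.10% were called lower and 5.75% higher. Eppin, a protease inhibitor with a WAP and a Kunitz domain that coats sperm and lies in the WFDC cluster, had 25.0 ± 1.68 CPM in libraries labelled WT and 19.8 ± 0.938 CPM in those labelled DKO (SD, n = 3 for each group; a log2 difference of -0.34, SE 0.0839; edgeR quasi-likelihood test, adjusted p = 0.0358). With the effective-length offset Eppin was at -0.23 (edgeR adjusted p = 0.0693). Spint2, a Kunitz inhibitor of membrane serine proteases, had 54.1 ± 1.34 against 42.7 ± 2.93 CPM (labelled WT against labelled DKO, SD, n = 3 for each group; a log2 difference of -0.34, SE 0.0741; edgeR quasi-likelihood test, adjusted p = 0.0288). The median of the 6 was -0.30. Spag11a and Spag11b, beta-defensin-like genes of the epididymis, had no fragment in any library.

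Of 20 genes listed from around the WFDC cluster that lack the symbol, 13 were tested, with a median log2 fold change of -0.12. Called lower were 2 of them, where 5.10% of all tested genes were called lower. The 2 called genes were Acot8, a peroxisomal thioesterase (-0.49, SE 0.111, edgeR quasi-likelihood test, adjusted p = 0.0301), and Pigt, a subunit of the complex that attaches lipid anchors to proteins (-0.29, SE 0.0734, edgeR quasi-likelihood test, adjusted p = 0.0358). Of 14 other inhibitors of the Kazal, serpin and Pebp families, 10 were tested with a median of -0.15, and Pebp4 alone was called, at 160 ± 15.9 CPM in libraries labelled WT and 208 ± 17.5 CPM in those labelled DKO (SD, n = 3 for each group; a log2 difference of 0.37, SE 0.0906; edgeR quasi-likelihood test, adjusted p = 0.0348). Of 13 other antimicrobial proteins 4 were tested with a median of -0.28 and none was called (edgeR), although 2 of them, Lcn2 and Lyz2, had an unadjusted p under 0.05.

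Markers of the cells that could supply these transcripts also differed between the groups. The lists were chosen with earlier results of these data known. Among all tested genes 5.10% were called lower and 5.75% higher. Of 23 Sertoli cell markers, a list that holds no member, all were tested and 6 were called, all lower (median log2 fold change -0.16): Cst12 at -0.51 (SE 0.104), Rhox5 at -0.44 (SE 0.0996), Trf at -0.43 (SE 0.106), Rhox8 at -0.42 (SE 0.0869), Dhh at -0.42 (SE 0.0877) and Cldn11 at -0.30 (SE 0.0739), with edgeR adjusted p from 0.0263 to 0.0358. Their summed level was 2127 to 2665 TPM in libraries labelled WT and 1912 to 2209 TPM in those labelled DKO, with overlap. Defining Sertoli regulators did not pass the test, with log2 fold changes of -0.15 for Sox9, -0.03 for Gata4 and 0.08 for Wt1. In a bulk tissue, fewer cells of a type and less RNA per cell cannot be told apart. The share of Sertoli cells in the lower level of Defb19 was not tested.

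A list of 5 genes known to depend on androgen in Sertoli cells shares Rhox5 with the Sertoli list and Eppin with the relatives above. It had 4 members called, all lower, where 5.10% of all tested genes were called lower. The list was chosen with earlier results of these data known. The call of Eppin was lost with the effective-length offset (edgeR adjusted p = 0.0693). Drd4, a dopamine receptor, was at -0.61 (SE 0.118; edgeR quasi-likelihood test, adjusted p = 0.0253), Tubb3, a tubulin, at -0.44 (SE 0.122; edgeR quasi-likelihood test, adjusted p = 0.0451), and Cldn3, a tight junction protein, at -0.30 without passing (edgeR adjusted p = 0.0823). The median of the 5 was -0.44, and -0.35 with the effective-length offset. The summed level of the list was 215 to 243 TPM in libraries labelled WT and 166 to 181 TPM in those labelled DKO, without overlap.

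Leydig cells, which make androgen, were marked by 11 genes, of which 3 were called, all lower: Insl3, a peptide hormone, at -1.12 (SE 0.278; edgeR quasi-likelihood test, adjusted p = 0.0358), Hsd3b6, a steroidogenic enzyme, at -1.09 (SE 0.242; edgeR quasi-likelihood test, adjusted p = 0.0292) and Star, which carries cholesterol into mitochondria, at -0.79 (SE 0.131; edgeR quasi-likelihood test, adjusted p = 0.0225). Over all tested genes the share called lower was 5.10%. With the effective-length offset Insl3 was at -0.93 and not called (edgeR adjusted p = 0.0517). The median of the 11 was -0.48 and their summed level 1641 to 3302 TPM in libraries labelled WT and 981 to 1651 TPM in those labelled DKO, with overlap. Most of that sum was Insl3, with a mean of 1764 TPM in libraries labelled WT and 884 TPM in those labelled DKO. Hsd3b1 alone of the 11 was above 0, at 0.21 (SE 0.158; edgeR quasi-likelihood test, adjusted p = 0.384). In the remaining lists, Tagln was called lower (-0.58, SE 0.105; edgeR quasi-likelihood test, adjusted p = 0.0237) of 5 myoid and endothelial markers, Sycp3 and Hormad1 higher (0.67, SE 0.122, and 0.54, SE 0.157; edgeR quasi-likelihood test, adjusted p = 0.0237 and 0.0498) of 7 spermatocyte markers, and Akap4 higher (0.35, SE 0.0836; edgeR quasi-likelihood test, adjusted p = 0.0341) of 8 spermatid markers. The call of Hormad1 was lost with the offset (edgeR adjusted p = 0.0503). None of 7 spermatogonial markers was called by edgeR, with 0 at an unadjusted p under 0.05, and none of 5 macrophage markers, with 1. Median log2 fold changes were -0.31 for the myoid and endothelial, 0.10 for the spermatocyte, -0.04 for the spermatid, 0.0043 for the spermatogonial and -0.38 for the macrophage markers. With the effective-length offset these medians were -0.33, 0.11, 0.15, 0.04 and -0.41 in the same order, so the spermatid median changed sign. The part of these cell types in the member values was not tested.

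Tissue of the epididymis, where most beta-defensins are made, was looked for with 17 markers. Lcn5, Lcn8, Lcn10, Spag11a, Spag11b and Ovch2 had no fragment in any library, and the 14 markers too low to be tested reached at most 0.29 TPM. The summed level of the list, 732 to 793 TPM in libraries labelled WT and 764 to 862 TPM in those labelled DKO, had a median log2 fold change of 0.05 over its 3 tested markers, none of them called by edgeR and 0 with an unadjusted p under 0.05, and came almost wholly from Cst8, a cystatin that germ cells also express.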

How the data were processed

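RNA sequencing of whole testes covered 3 libraries labelled DKO and 3 labelled WT, a grouping taken from the genotype label. Replicate numbers follow the accession order and pair no animals. That they are separate animals rests on the labels. Per the submitters' processing notes the tools were STAR 2.7.0f, RSEM 1.2.31 and DESeq2 1.12.3 and the build mm10; strand handling is not given in the sources used here. Per the file headers, the authors deposited for each library RSEM expected counts (estimated fragments per gene, 93.2% whole), TPM per effective length, transcript lengths, effective lengths and FPKM. The deposited FPKM went unused.

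Expected counts were rounded. Genes passing filterByExpr (17110 of 24411) were tested with edgeR 4.0.16 (TMM, glmQLFit, glmQLFTest, Benjamini-Hochberg over all of them), with genotype as the only term. The SE is the log2 fold change divided by the square root of F. The effective-length offset used each library's deposited effective lengths, and the mean fragment length was recovered as the typical gap between transcript and effective length among genes above 3000 bases. The test was tried on simulated counts with known changes. The offset was tried on simulated counts scaled by the same effective lengths that it removes. That trial checks the code only, not whether the offset suits these data. Alternatives included DESeq2 1.42.0 and limma 3.58.1 on log2(TPM + 1) and log2(TPM + 0.1). Overlaps of exons came from GENCODE M21.

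The members and gene lists were chosen with earlier results of these data known. Genes named are every member with a wildtype mean of at least 0.5 TPM, every called member, the 3 members nearest that line on each side, called genes of the lists, and the targeted genes. Sox9, Gata4, Wt1, Hsd3b1, Cldn3, Lcn2, Lyz2, Serpina3n, Bpi, Lyz1 and Cst8, and markers at 0, were added after their values were seen.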

Additional observations from a re-analysis of the deposited data

How the results depend on the processing

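The calls of Defb19, Defb36 and Wfdc10 did not depend on DESeq2 size factors, either count filter, the DESeq2 test, limma on log2(TPM + 0.1), the effective-length offset, removal of the length trend or thinning to the smallest total; limma on log2(TPM + 1) called 2 members. With the fragment length as a covariate 0 members were called, 0 of them lower, and the median of the tested members was 0.02. Fits that left out a library called from 1 to 4 members, all lower, with 1 without WT replicate 3 and 4 without DKO replicate 3, and medians from -0.29 to -0.09; over all genes the calls in these fits ran from 7 without WT replicate 3, 11 without DKO replicate 1 and 13 without WT replicate 2 to 3029 without DKO replicate 3, against 1856 with all libraries. The median was -0.26 with a mean count of at least 50 and with the DESeq2 test, which tested fewer members, -0.04 and -0.03 with limma on log2(TPM + 1) and log2(TPM + 0.1), and -0.04 with the effective-length offset and with the length trend removed.

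Members that changed sign were not called in any setting. Defb45 was at 0.06 with limma on either scale, 0.12 with the offset, 0.0050 with the length trend removed and 0.21 with the covariate. Wfdc15a was at 0.09, 0.13, 0.08 and 0.03 in the same settings. The covariate also gave -0.42 for Defb21, -0.02 for Defb30, 1.07 for Wfdc17, 0.21 for Wfdc6a and 0.10 for Wfdc8; the cause was not tested. Leaving out a library gave from -0.26 to 0.63 for Defb14, -0.12 to 0.13 for Defb21, -0.01 to 0.07 for Defb33 and -0.73 to 0.33 for Wfdc17.

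With a line of 0.1 TPM, 31 members were expressed. No paired analysis was possible because the labels give no replicate number shared between the groups. The 3 libraries per group, and counts of 0 to 11 fragments for Defb8, Defb11, Defb15, Wfdc9 and Wfdc18, limit what could be seen.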

Other observations

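WT replicate 2 was the highest library for 3 further genes, which were picked after their values were seen and stand for no gene group. Lcn2, a siderophore-binding antimicrobial protein, had 140.79, 369.08 and 188.08 TPM in libraries labelled WT and 124.29, 136.94 and 145.82 TPM in those labelled DKO (log2 fold change -0.80, SE 0.249; edgeR quasi-likelihood test, adjusted p = 0.0574). Lyz2, the lysozyme of myeloid cells, had 21.79, 43.17 and 30.32 TPM against 19.76, 20.14 and 23.80 TPM (log2 fold change -0.58, SE 0.177; edgeR quasi-likelihood test, adjusted p = 0.0548). Serpina3n, an acute-phase serpin, had 1.05, 15.04 and 1.42 TPM against 1.96, 2.18 and 1.94 TPM (log2 fold change -1.46, SE 0.709; edgeR quasi-likelihood test, adjusted p = 0.181). None of the 3 passed the threshold. Of the same list of antimicrobial proteins as Lcn2 and Lyz2, Bpi (32.89, 32.81 and 34.03 TPM) and Lyz1 (0.16, 0.09 and 0.19 TPM) were lowest in WT replicate 2 among the libraries labelled WT. Bpi was nearly level between WT replicates 1 and 2, and Lyz1 rested on only 3, 2 and 4 fragments. Neither difference can be read as a real one.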
